A study of Danio rerio with 2 samples.

Results

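Of the 1287 genes that the authors listed as different between ezh2 mutant and wild-type (WT) zebrafish embryos, 88 (6.84%) belonged to 1 of 6 metabolic classes of KOG, a classification of eukaryotic proteins by shared ancestry. The classes were lipid (33 genes), amino acid (19), carbohydrate (16), energy (9), nucleotide (6) and coenzyme metabolism (5). Membership was read from the class text that the deposited table gives for each gene, not from expression values. The classes held 101 rows, of which 13 were left out by annotation (9 globin rows, 3 rows annotated as solute carriers, and alas2, the first enzyme of heme synthesis in red cells). The KOG label fitted the proteins in part. By hand, from product names, 56 of the 88 were placed among enzymes of metabolism, including phka2, a kinase subunit, and a phosphatase-related protein. The other 32 were transporters and pumps (11), peptidases (10), lipid-binding or storage proteins (5) and scaffold, protein-modifying or uncharacterised proteins (6). Several solute carriers stayed among the 88, because their product names do not use that term.

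RNA was taken from whole embryos of the AB background, 28 hours after fertilization, with 1 library of ezh2-/- embryos and 1 library of WT embryos. The sources used here state neither how many embryos each library pooled nor what the ezh2 allele is. The ezh2 gene itself was not among the listed genes, so its level could not be used to check the genotype labels. With 1 library per genotype no test was possible and no difference below has a replicate check.

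The ezh2 product is the methyltransferase of Polycomb repressive complex 2. It marks histone H3 at lysine K27, and many developmental genes are held silent with its help. Embryos of this age live on yolk lipid and protein. They hydrolyse the lipids to fatty acids, which are activated to acyl-CoA, then elongated, desaturated, burned, or built into membrane phospholipids and sphingolipids. Arginine is split between nitric oxide synthases, which make a signalling gas, and arginases, whose product ornithine leads to proline, glutamate and polyamines.

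Each gene has a read count and an FPKM (fragments per kilobase of transcript, scaled to the size of the library) in both libraries. Folds below are ratios of counts, mutant over WT where higher and WT over mutant where lower, on the scale of the deposited fold changes, and the parentheses after them hold a 95% exact (Clopper-Pearson) interval that covers counting error only. The table is a selection, in which the FDR of the authors' deposited table reaches no higher than 0.00996 and the smallest change in either direction is 1 on the log2 scale. That nearly every listed gene differs at least 2-fold is therefore built in, and the total depth of the libraries is unknown. A gene outside the table is called not listed, which says nothing about whether it differed. Genes of the pathway and marker lists were looked up mainly by symbol. A zebrafish KEGG match, the main source of symbols, was given for 56 of the 88 members (63.6%) and 506 of the 1199 other genes (42.2%), so a list gene known there by product name alone can be missed and counted as not listed.

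Metabolic class genes were mostly higher in the mutant library. At least 2-fold higher were 75 of the 88 (85.2%), against 68.1% of all 1287 genes, and at least 2-fold lower were 13 (14.8%), against 31.9%. At least 4-fold higher were 13 of the 88 (14.8%), a smaller share than the 22.5% of the table. At least 4-fold lower were 4 of the 88, against 4.58% of the table. The median log2 fold change was 1.37 over the 88 genes, 1.31 over the whole table and 1.29 over the 1199 other genes. These medians mix both directions. Over the higher genes alone the median was smaller in the 88, at 1.45, than in the table (1.61) or the other genes (1.67). Summed counts of the 88 were 34153 in the mutant library and 16728 in the WT library, to which pcxb alone gave 5876 and 2478. Over the whole table the sums were 764775 in the mutant library and 799647 in the WT library. The 13 rows of the same classes that were left out went mostly the other way, 2 higher and 11 lower. They remain among the 1287, so part of the excess of higher genes comes from leaving them out. The shares above also depend on where 0 is set. With the median of all listed genes moved to 0, a shift of -1.31 in log2, genes less than 2.47-fold higher turned lower. Of the 88, 50 stayed higher and 25 changed side. Changing side or staying higher on this centred scale, wherever given below, says only whether a fold was under 2.47. That median comes from selected genes, 68.1% of them higher, so the centred scale is no check of a gene's direction. Over the table, log2 ratios of FPKM, which is scaled to library size, lay a median of 0.0157 above those of counts on the scale used here. FPKM thus gave no shift of that size. Both measures come from the same libraries, so their closeness cannot decide where 0 should lie.

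In each of the 4 larger classes the share of higher genes exceeded that of the table. Higher in the mutant library were 27 of 33 lipid genes (median log2 1.39), 18 of 19 amino acid genes (1.58), all 16 carbohydrate genes (1.45) and 7 of 9 energy genes (1.25). By role, 10 of the 19 amino acid genes were peptidases. Of the small classes, 4 of 6 nucleotide genes (66.7%, median log2 1.09) and 3 of 5 coenzyme genes (60%, 1.35) were higher. Both shares lay below the 68.1% of the table. On the scale with the table's median at 0, none of the 4 nucleotide genes and 3 of the 7 energy genes stayed higher. The energy result also depends on the rows left out: with the globin and solute carrier rows kept, 8 energy genes were higher and 11 lower, and the median was -1.13. The coenzyme median turned to -0.16 with a minimum of 50 counts in 1 library and to -0.032 with alas2 kept. Roles were assigned by hand after the table was opened. By role, 51 of the 56 enzymes of metabolism were higher (91.1%), as were 24 of the other 32 members (75.0%). Of the 6 nucleotide class genes, 4 were scaffold or uncharacterised proteins. The 68.1% of all 1287 genes that were higher applies beside each role group and list below, also where all genes of a small group were higher.

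**Figure D1:**
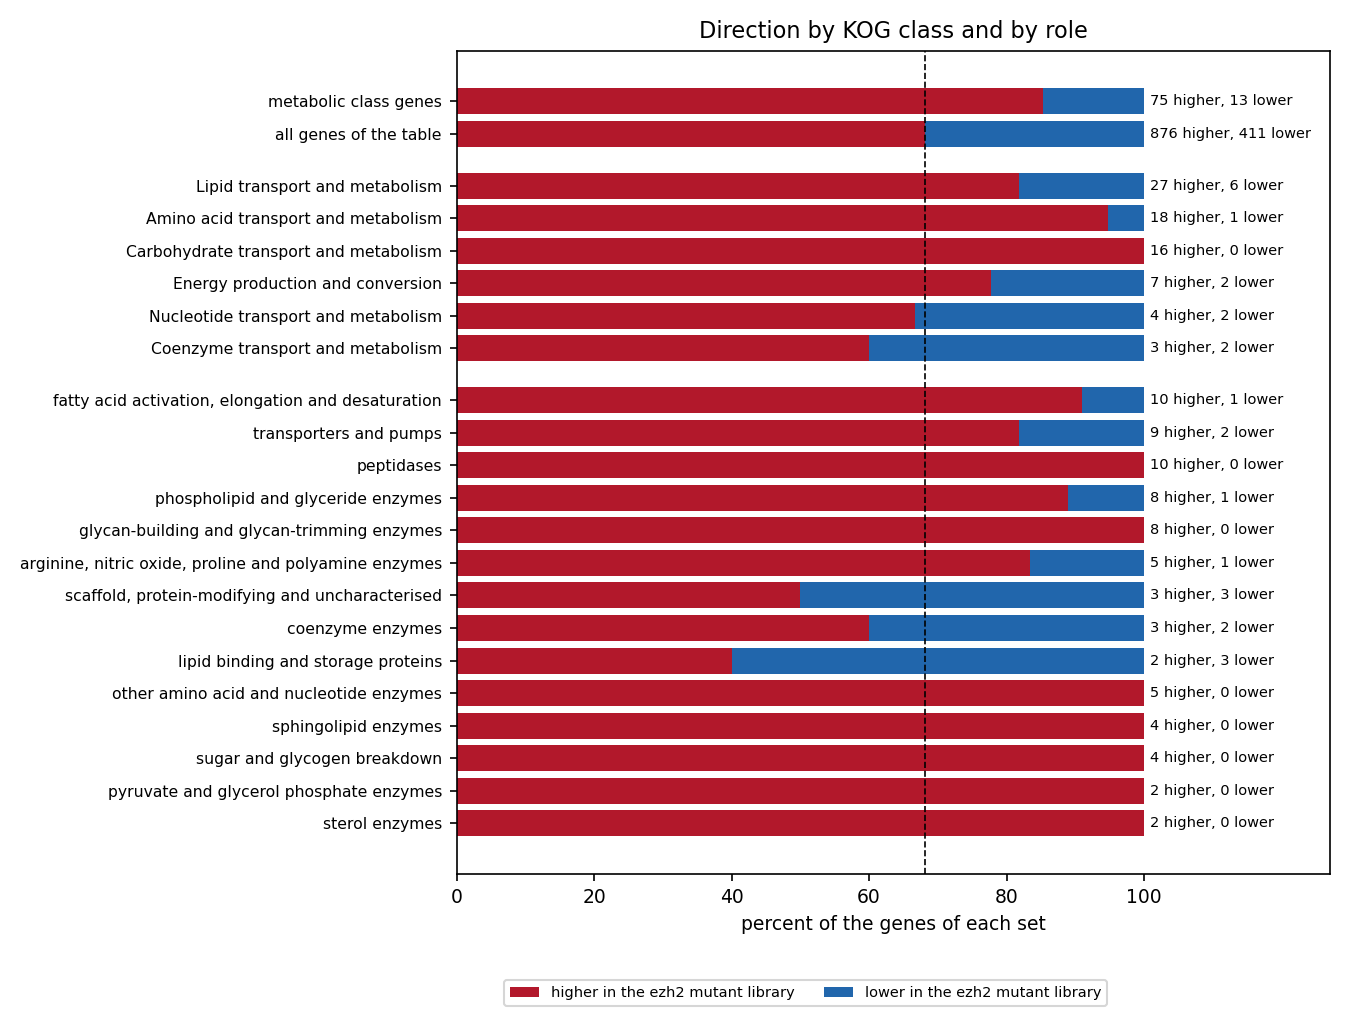
Percent of the genes of each set that were higher (red) or lower (blue) in the ezh2 mutant library, for the 88 genes, the whole table, the 6 KOG classes and 14 role groups, with the numbers of genes at the right. The dashed line marks the 68.1% of all 1287 genes that were higher. Lipid-binding proteins have the smallest share of higher genes, 2 of 5, and 25 of the 75 higher genes turn lower when the median of the table is set to 0.

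Levels were low to moderate. The median FPKM of the 88 genes was 3.66 in the mutant library and 1.74 in the WT library, against 4.14 and 2.41 over the table. In the mutant library 10 genes lay under 1 FPKM and 21 above 10 FPKM, against 25 and 9 in the WT library. The 75 higher genes had medians of 4.02 FPKM in the mutant and 1.59 FPKM in WT, and the 13 lower genes 2.83 FPKM in the mutant and 6.34 FPKM in WT. Because the genes were split by the ratio of these same values, the order of the medians is largely built in. At least 50 counts in 1 library were reached by 82 of the 88.

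**Figure D2:**
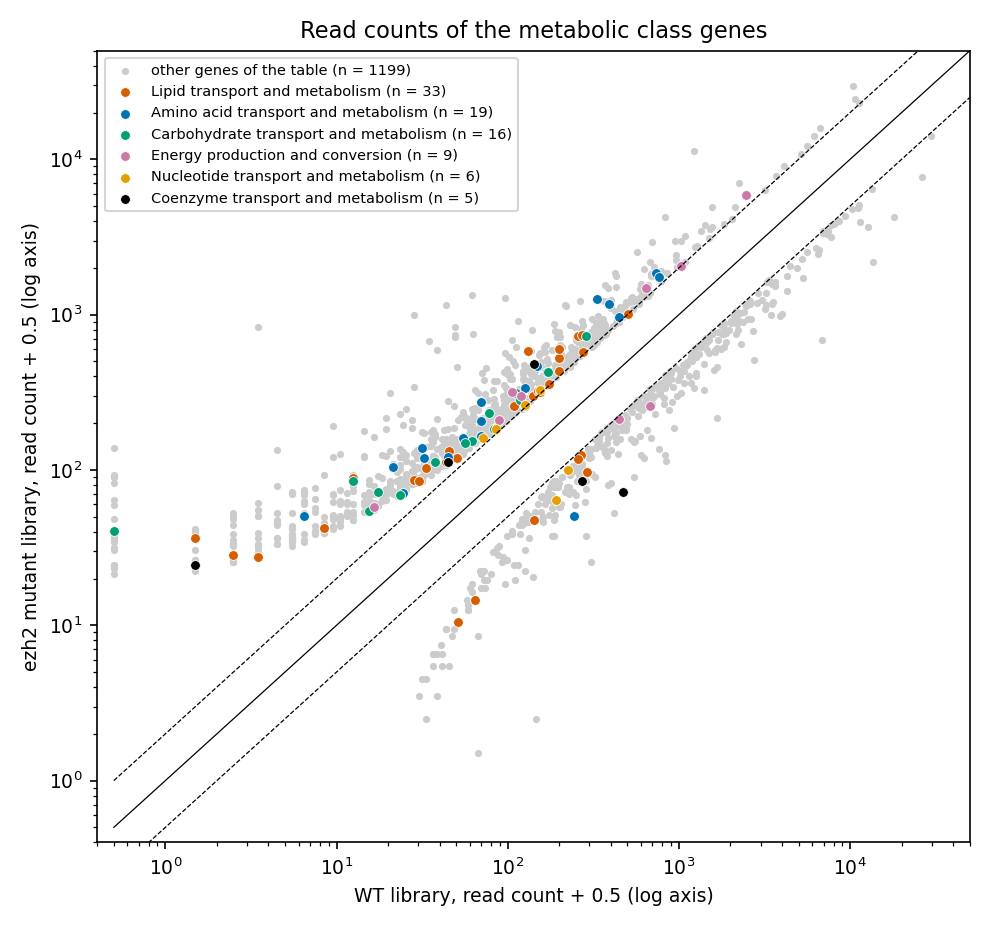
Read count plus 0.5 of each gene in the ezh2 mutant library (vertical) and the WT library (horizontal), both on log axes, for the 88 metabolic class genes (colored by KOG class) and the 1199 other genes of the table (grey). The solid line is equality and the dashed lines are 2-fold. The band between the dashed lines is almost empty because the table is a selection. On the scale of the deposited fold changes, which the plot leaves out, 75 of the 88 genes were at least 2-fold higher. Of these, slc25a1b lies just inside the band as drawn. If the median of the table were set to 0, 25 of the 75 folds would turn lower.

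Of 11 fatty acid enzymes, 10 were higher in the mutant library, 4 of which were under 2.47-fold and changed side on the centred scale. The elongases lengthen acyl chains by pairs of carbons: elovl7b had 734 mutant and 272 WT counts (25.2 and 10.1 FPKM), 2.73-fold higher (2.37 to 3.14), and elovl2, which acts on polyunsaturated chains, had 154 mutant and 55 WT counts (8.44 and 2.75 FPKM), 2.83-fold higher (2.07 to 3.92). An elovl6-like gene had 256 mutant and 108 WT counts, 2.39-fold higher (1.90 to 3.03). The fold of elovl8a, another member of the family, rests on a single WT read: 36 mutant counts and 1 WT count gave 36.4-fold, with an interval from 6.12 to 1476. All 4 elongases were thus higher, elovl6-like by less than 2.47-fold. A gene annotated as estradiol 17-beta-dehydrogenase 12, in mammals a reductase of the elongation cycle, had 86 mutant and 28 WT counts, 3.1-fold higher (2.0 to 4.94).

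Of the acyl-CoA synthetases, which activate free fatty acids, 3 were higher. For acsl3a the counts were 131 in the mutant and 45 in WT, 2.94-fold higher (2.08 to 4.22). The counts of acsl4b were 436 in the mutant and 200 in WT, 2.2-fold higher (1.86 to 2.62), and those of acsl5, the most abundant of the 3 at 16.8 FPKM in the mutant and 7.76 FPKM in WT, were 1015 and 504, 2.03-fold higher (1.83 to 2.27). The last 2 changed side on the centred scale. A fatty acyl-CoA reductase (si:dkey-97m3.1), which makes fatty alcohols, had 119 mutant and 50 WT counts and also changed side.

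Against the elongases stood the desaturase fads2, which introduces double bonds into polyunsaturated chains: it had 10 mutant and 51 WT counts (0.286 and 1.56 FPKM), 5.05-fold lower (2.53 to 11.2). It was the 1 lower gene of the group. Among higher fatty acid genes with at least 50 counts, the fold was greatest for the brain isoform of carnitine palmitoyltransferase 1, with 581 mutant and 131 WT counts (5.81 and 1.16 FPKM), 4.48-fold higher (3.70 to 5.46). Its relatives in the outer mitochondrial membrane load fatty acids onto carnitine for oxidation. No symbol of the 34 on a list for fatty acid oxidation and ketone bodies was found in the table. That list holds carnitine palmitoyltransferase genes, while the isoform above is known by its product name alone, so it may be a gene of that list. Of 37 genes of a list for fatty acid synthesis and desaturation, 7 were listed, 6 higher and fads2 lower, and their median was 1.44 in log2. All 7 are members.

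**Figure D3:**
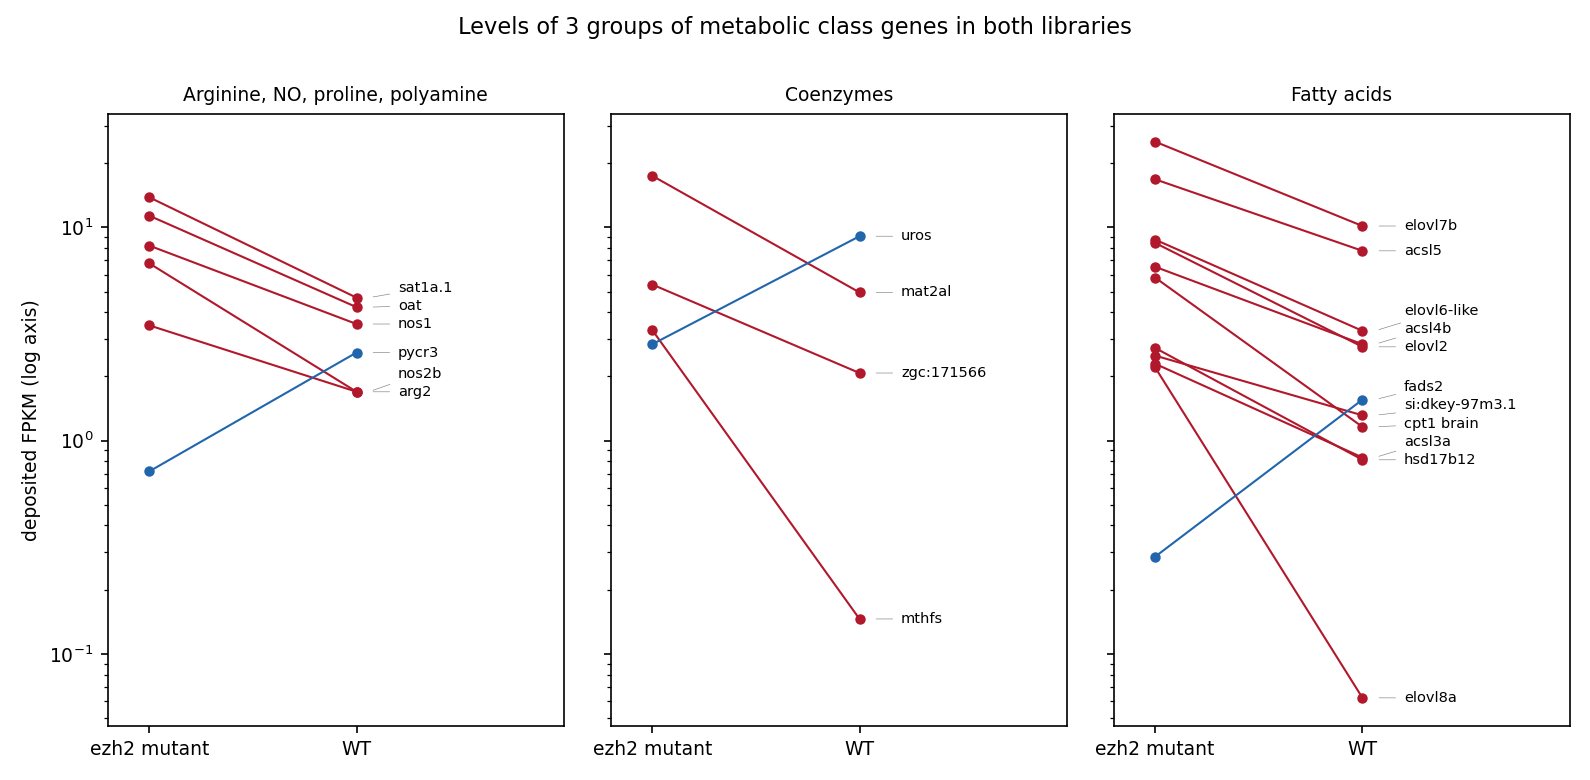
Deposited FPKM (log axis) of 3 role groups in the ezh2 mutant library (left) and the WT library (right) of each panel, with 1 line per gene, red for genes higher and blue for genes lower in the mutant by counts. In the coenzyme panel, which shows 4 genes, uros lies at 2.83 FPKM in the mutant and at 9.08 FPKM in WT, and fads2 and pycr3 are the only lower genes of their panels. Of the genes with red lines, nos1, nos2b, acsl4b, acsl5, elovl6-like and si:dkey-97m3.1 turned lower by counts with the median of the table at 0. The lines show FPKM, by which elovl6-like was 2.68-fold higher.

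Of the 9 genes for phospholipids and glycerides, 8 were higher. Cytosolic phospholipases A2 release fatty acids, arachidonic acid among them, from membrane phospholipids. The best measured of 3 was pla2g4aa, with 728 mutant and 258 WT counts (6.05 and 1.93 FPKM), 2.85-fold higher (2.47 to 3.30). The gene pla2g4f.1 had 112 mutant and 43 WT counts, 2.63-fold higher (1.84 to 3.83). A gamma-like member had 28 mutant counts and 2 WT counts, a ratio of 14.1 with an interval from 3.57 to 122. All 3 phospholipases stayed higher on the centred scale.

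Genes that build or rework phospholipids moved the same way. For lpcat2, which reacylates lysophosphatidylcholine, 529 mutant and 199 WT counts gave 2.68-fold higher (2.28 to 3.18). The glycerophosphodiesterase gdpd2 had 316 mutant and 106 WT counts, 3.01-fold higher (2.41 to 3.79). Diacylglycerol and phosphatidic acid are made from each other by diacylglycerol kinases and phosphatidate phosphatases, and 1 gene of each kind was higher: dgkh had 102 mutant and 33 WT counts (3.12-fold, 2.09 to 4.77), and plpp2a had 71 mutant and 24 WT counts (2.99-fold, 1.86 to 4.96). The gene cds1, whose enzyme turns phosphatidic acid into CDP-diacylglycerol, had 575 mutant and 276 WT counts, 2.1-fold higher (1.82 to 2.44), and was the 1 gene of the 8 to change side on the centred scale. The lower gene was lipid phosphate phosphatase-related protein type 1, a membrane protein of neurons in mammals, with 117 mutant and 256 WT counts (12.9 and 24.4 FPKM), 2.17-fold lower (1.73 to 2.72).

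All 4 genes grouped by name as sphingolipid enzymes were higher, 2 of them only until the scale was centred. The sphingosine-1-phosphate phosphatase gene sgpp2 had 88 mutant and 12 WT counts (2.79 and 0.423 FPKM), 7.41-fold higher (4.03 to 14.9). Sphingosine kinase, which catalyses the opposite reaction, is not among the 88 because KOG gives it several letters, and sphk1 had 63 mutant and 10 WT counts, 6.36-fold higher (3.24 to 13.9). The sphingomyelinase-like gene smpdl3a had 27 mutant and 3 WT counts, a ratio of 9.09 with an interval from 2.80 to 46.8. Its relative smpdl3b (316 mutant and 154 WT counts, 2.07-fold) and the ceramidase acer1 (301 mutant and 140 WT counts, 2.17-fold), which splits ceramide, changed side on the centred scale.

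Both sterol genes were higher, also on the centred scale. The gene hmgcra encodes HMG-CoA reductase, the rate-limiting enzyme of cholesterol synthesis, and had 84 mutant and 30 WT counts (1.18 and 0.414 FPKM), 2.83-fold higher (1.84 to 4.45). Plasma lecithin-cholesterol acyltransferase, lcat, had 598 mutant and 199 WT counts (11.3 and 3.63 FPKM), 3.04-fold higher (2.58 to 3.58). Of 27 genes of a list for sterol and isoprenoid synthesis, hmgcra was the 1 listed gene.

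Lipid-binding and storage proteins were the role group with the most lower genes for its size, 3 of 5. A vitellogenin, vtg7, a yolk precursor protein, had 14 mutant and 64 WT counts (0.201 and 0.866 FPKM), 4.53-fold lower (2.51 to 8.74). Retinol-binding protein 2 had 47 mutant and 142 WT counts (5.88 and 17.5 FPKM), 2.99-fold lower (2.14 to 4.25). Retinoid-binding protein 7 had 125 mutant and 267 WT counts (19.3 and 38.9 FPKM, the highest WT level of the 88), 2.11-fold lower (1.70 to 2.64). Both carry vitamin A derivatives inside cells. The higher pair, a START-domain lipid transfer protein (323 mutant and 150 WT counts, 2.17-fold) and the fat storage protein fitm2 (358 mutant and 174 WT counts, 2.08-fold), changed side on the centred scale. None of 8 markers of liver and yolk syncytial layer was listed.

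In the arginine group 5 of 6 genes were higher (83.3%, against 68.1% of all listed genes). Mitochondrial arginase, arg2, had 272 mutant and 69 WT counts (6.78 and 1.69 FPKM), 3.98-fold higher (3.05 to 5.26). The enzyme after it, ornithine aminotransferase (oat), had 427 mutant and 169 WT counts (11.3 and 4.22 FPKM), 2.55-fold higher (2.13 to 3.07). The polyamine acetyltransferase sat1a.1, which starts polyamine breakdown, had 207 mutant and 69 WT counts (13.8 and 4.68 FPKM), 3.03-fold higher (2.30 to 4.04). These 3 stayed higher on the centred scale.

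Both nitric oxide synthases, the other users of arginine, were higher by folds that changed side there. The neuronal type nos1 had 1477 mutant and 644 WT counts (8.21 and 3.52 FPKM), 2.32-fold higher (2.11 to 2.55), and the inducible type nos2b had 210 mutant and 89 WT counts (3.47 and 1.69 FPKM), 2.38-fold higher (1.85 to 3.09). The lower gene was pycr3, a pyrroline-5-carboxylate reductase that makes proline: it had 50 mutant and 243 WT counts, 4.81-fold lower (3.54 to 6.66). By FPKM the same gene had 0.717 in the mutant and 2.59 in WT, a smaller 3.61-fold.

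The other 5 amino acid and nucleotide enzymes were all higher, with 3 changing side on the centred scale. Beta-ureidopropionase (upb1), the final step of pyrimidine breakdown, had 464 mutant and 148 WT counts (16.6 and 5.49 FPKM), 3.17-fold higher (2.63 to 3.84). Glutamate decarboxylase 3 (gad3), one of the enzymes that make the transmitter GABA, had 161 mutant and 54 WT counts, 3.01-fold higher (2.2 to 4.18). The 3 with smaller folds were the branched-chain aminotransferase bcat1 (164 mutant and 69 WT counts, 2.40-fold), xanthine dehydrogenase (xdh, 260 mutant and 125 WT counts, 2.1-fold), which makes urate in purine breakdown, and a 5'-nucleotidase domain protein (160 mutant and 71 WT counts, 2.28-fold). Pigment cells of the zebrafish express xdh strongly, and it was the 1 listed gene of 10 pigment cell markers. Of 74 genes of a list for amino acid synthesis and breakdown, 6 were listed, 5 higher and pycr3 lower.

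Of the 5 coenzyme enzymes 3 were higher (60%, against 68.1% of all listed genes), also on the centred scale. The gene mat2al encodes a methionine adenosyltransferase that makes S-adenosylmethionine, the methyl donor of histone methyltransferases. It had 483 mutant and 141 WT counts (17.4 and 4.95 FPKM), 3.46-fold higher (2.86 to 4.20).

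The other 2 higher genes encode folate enzymes. A gamma-glutamyl hydrolase (zgc:171566), which trims the glutamate tail of folates, had 112 mutant and 44 WT counts, 2.57-fold higher (1.80 to 3.73). The formyltetrahydrofolate cyclo-ligase gene mthfs had 24 mutant counts and 1 WT count, a ratio of 24.2 with an interval from 3.95 to 997. No symbol of the 31 on a list for the folate, serine and methionine cycles was found, and mat2al and mthfs are not on that list.

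Among the lower coenzyme genes was uros, uroporphyrinogen III synthase of the heme pathway, with 84 mutant and 270 WT counts (2.83 and 9.08 FPKM), 3.18-fold lower (2.48 to 4.12). The mitochondrial iron importer slc25a37 (mitoferrin 1), an energy-class transporter that serves heme synthesis in red cells, had 257 mutant and 677 WT counts, 2.61-fold lower (2.26 to 3.02). All 7 red cell markers were listed, at 9 loci, every one lower in the mutant by 2.67-fold to 9.89-fold, with summed levels of 1068 FPKM in the mutant and 5391 FPKM in WT. Their part in the difference of uros and slc25a37 was not tested, and in whole embryos fewer cells of a type and less RNA per cell cannot be told apart. Neither gene is counted among those 7 markers.

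Glycan enzymes made up 8 of the 16 carbohydrate genes, and all 8 were higher, with 2 changing side on the centred scale. They build or trim the sugar chains of glycoproteins and glycolipids in the endoplasmic reticulum and Golgi. A beta-1,3-galactosyltransferase 2-like gene had 84 mutant and 12 WT counts (3.93 and 0.575 FPKM), 7.07-fold higher (3.84 to 14.2). The most abundant was b4galt1, which adds galactose to N-acetylglucosamine, with 425 mutant and 172 WT counts (16.0 and 6.36 FPKM), 2.50-fold higher (2.09 to 3.0). A beta-1,3-N-acetylglucosaminyltransferase 2 gene, of the family that extends poly-N-acetyllactosamine chains, had 733 mutant and 285 WT counts (10.3 and 3.07 FPKM), 2.60-fold higher (2.26 to 2.99). Its relative b3gnt7 (283 mutant and 118 WT counts, 2.42-fold) and the mannosidase man1b1b (182 mutant and 83 WT counts, 2.21-fold) were the 2 that changed side.

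The remaining 3 glycan enzymes comprised a branching enzyme of O-glycans annotated as beta-1,6-N-acetylglucosaminyltransferase 4 (231 mutant and 77 WT counts, 3.03-fold, 2.33 to 3.97), a sialyltransferase annotated as ST3 type 5-like (154 mutant and 61 WT counts, 2.55-fold, 1.88 to 3.49) and an alpha-mannosidase 2-like gene. The mannosidase had 54 mutant and 15 WT counts, 3.64-fold higher (2.02 to 6.94), but 0.767 and 0.307 FPKM, a ratio of 2.50. The sugar nucleotide transporter slc35a3b, which brings UDP-N-acetylglucosamine into the Golgi, showed a wider gap: 112 mutant and 37 WT counts gave 3.06-fold (2.09 to 4.56), while 1.98 and 1.18 FPKM gave 1.67-fold.

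All 4 sugar and glycogen breakdown genes were higher, from WT levels under 1 FPKM. A glycogen debranching enzyme gene had 40 mutant counts and no WT count (0.451 FPKM and listed at 0). Against a floor of 3 counts set for the WT library the ratio was 13.5, which depends on that floor and is no lower limit. The exact interval began at 10.5. A lactase-like glycosidase had 72 mutant and 17 WT counts, 4.28-fold higher (2.50 to 7.74). The amylase amy2al1, which digests starch, had 69 mutant and 23 WT counts, 3.03-fold higher (1.87 to 5.09). For phka2, a subunit of the kinase that switches on glycogen phosphorylase, 258 mutant and 126 WT counts gave 2.07-fold, which changed side on the centred scale. No symbol of the 53 on a list for glycolysis and gluconeogenesis or of the 15 for the pentose phosphate pathway was found. The first of these lists does not hold the pyruvate carboxylase gene pcxb, given next, which was placed on another list.

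Of the 88 genes, the most abundant in the mutant library by FPKM was pcxb, pyruvate carboxylase, which makes oxaloacetate from pyruvate and so refills the citric acid cycle. It had 5876 mutant and 2478 WT counts (63.5 and 22.8 FPKM), 2.40-fold higher (2.28 to 2.51) by counts and 2.78-fold by FPKM, and fell just under 0 on the centred scale, at -0.046 in log2. It was the 1 listed gene of 36 on a list for pyruvate oxidation and the citric acid cycle. A gene annotated as mitochondrial glycerol-3-phosphate dehydrogenase (gpd2), which passes electrons from glycerol 3-phosphate to the respiratory chain, had 299 mutant and 119 WT counts, 2.54-fold higher (2.05 to 3.17). The other database hits of that row name calmodulin, so its identity is less sure. No symbol of the 34 on a list for the respiratory chain and ATP synthase was found. The table does hold a locus labelled as a new gene, outside that list and without a KOG class, whose match is cox8a of cytochrome c oxidase. It had 36 mutant counts and no WT count. These counts cover that locus alone and do not give the level of any other cox8a locus.

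Of 11 transporters and pumps 9 were higher (81.8%, against 68.1% of all listed genes), 3 of them only until the scale was centred. The amino acid transporter slc7a10a had 139 mutant and 31 WT counts (2.63 and 0.577 FPKM), 4.53-fold higher (3.05 to 6.92), and slc7a4 of the same family had 71 mutant and 24 WT counts, 2.99-fold higher (1.86 to 4.96). The mitochondrial citrate carrier slc25a1b, which exports citrate for lipid synthesis, had 2047 mutant and 1030 WT counts, 2.01-fold higher (1.86 to 2.17), the smallest fold of the 88. By FPKM it had 25.7 in the mutant and 9.35 in WT, a ratio of 2.75, so the 2 deposited measures differ more for this gene than for most. An ADP/ATP carrier annotated as slc25a6 had 57 mutant and 16 WT counts, 3.60-fold higher (2.04 to 6.71).

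Monocarboxylate transporters move lactate, pyruvate and related acids. Among the members 3 of them were higher, slc16a8 (186 mutant and 86 WT counts, 2.18-fold) only until the scale was centred, monocarboxylate transporter 12 with 148 mutant and 56 WT counts (2.67-fold, 1.95 to 3.70), and a transporter 7-like gene with 313 mutant and 112 WT counts (2.82-fold, 2.27 to 3.53). The last shares its database match, slc16a6a, with a row left out of the 88 that went the other way, at 186 mutant and 380 WT counts, 2.02-fold lower (1.69 to 2.42). Which locus is slc16a6a is uncertain, and so is its direction. The choline transporter-like gene slc44a2 had 257 mutant and 126 WT counts, 2.06-fold higher, and changed side on the centred scale. The lower transporters were slc25a37, above, and the proton pump subunit atp6v0a2a, with 211 mutant and 445 WT counts (3.04 and 6.34 FPKM), 2.09-fold lower (1.77 to 2.47).

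All 10 peptidases, which KOG files under amino acid metabolism, were higher, with 2 changing side on the centred scale. Of these, 9 were serine peptidases, with summed counts of 7401 in the mutant and 2767 in WT. Matriptase 1a (st14a), a membrane protease of epithelia, had 1865 mutant and 735 WT counts (30.3 and 11.5 FPKM), 2.56-fold higher (2.35 to 2.79), and a second gene annotated as its homologue had 1176 mutant and 388 WT counts (11.9 and 3.64 FPKM), 3.06-fold higher (2.73 to 3.44). A trypsin-like gene, zgc:100868, had 1267 mutant and 331 WT counts (23.8 and 4.86 FPKM), 3.87-fold higher (3.42 to 4.38). Another, zgc:112038, had 50 mutant and 6 WT counts, 8.42-fold higher (3.61 to 24.0).

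The smallest folds among the peptidases were those of cfb and tmprss9. Complement factor B, cfb, the protease of the alternative complement pathway, had 1734 mutant and 762 WT counts (40.0 and 16.3 FPKM), 2.30-fold higher (2.11 to 2.51), and tmprss9 had 966 mutant and 448 WT counts, 2.18-fold higher (1.95 to 2.44). Both changed side on the centred scale. The other serine peptidases were prss56 (119 mutant and 32 WT counts, 3.76-fold), the ovochymase-like zgc:154142 (104 mutant and 21 WT counts, 5.0-fold) and tmprss13a (120 mutant and 44 WT counts, 2.75-fold). The metallopeptidase ace, angiotensin-converting enzyme, had 339 mutant and 126 WT counts, 2.72-fold higher (2.21 to 3.36).

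The last 6 members were split, 3 higher and 3 lower. N-myristoyltransferase 1, which attaches a fatty acid to proteins, had 96 mutant and 291 WT counts (3.49 and 10.1 FPKM), 3.0-fold lower (2.38 to 3.82). Of the 6 nucleotide class genes 4 fell here. The signalling scaffold cnksr2b had 99 mutant and 225 WT counts, 2.25-fold lower (1.77 to 2.88), its relative connector enhancer of KSR 1 had 327 mutant and 153 WT counts, 2.16-fold higher, and a dihydropyrimidinase-related protein 2 gene, known in axon growth, had 183 mutant and 85 WT counts, 2.17-fold higher. The 2 higher genes changed side on the centred scale. The uncharacterised LOC101882899 had 64 mutant and 191 WT counts, 2.95-fold lower, and zgc:113516 had 42 mutant and 8 WT counts, 5.30-fold higher (2.46 to 13.1).

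**Figure D4:**
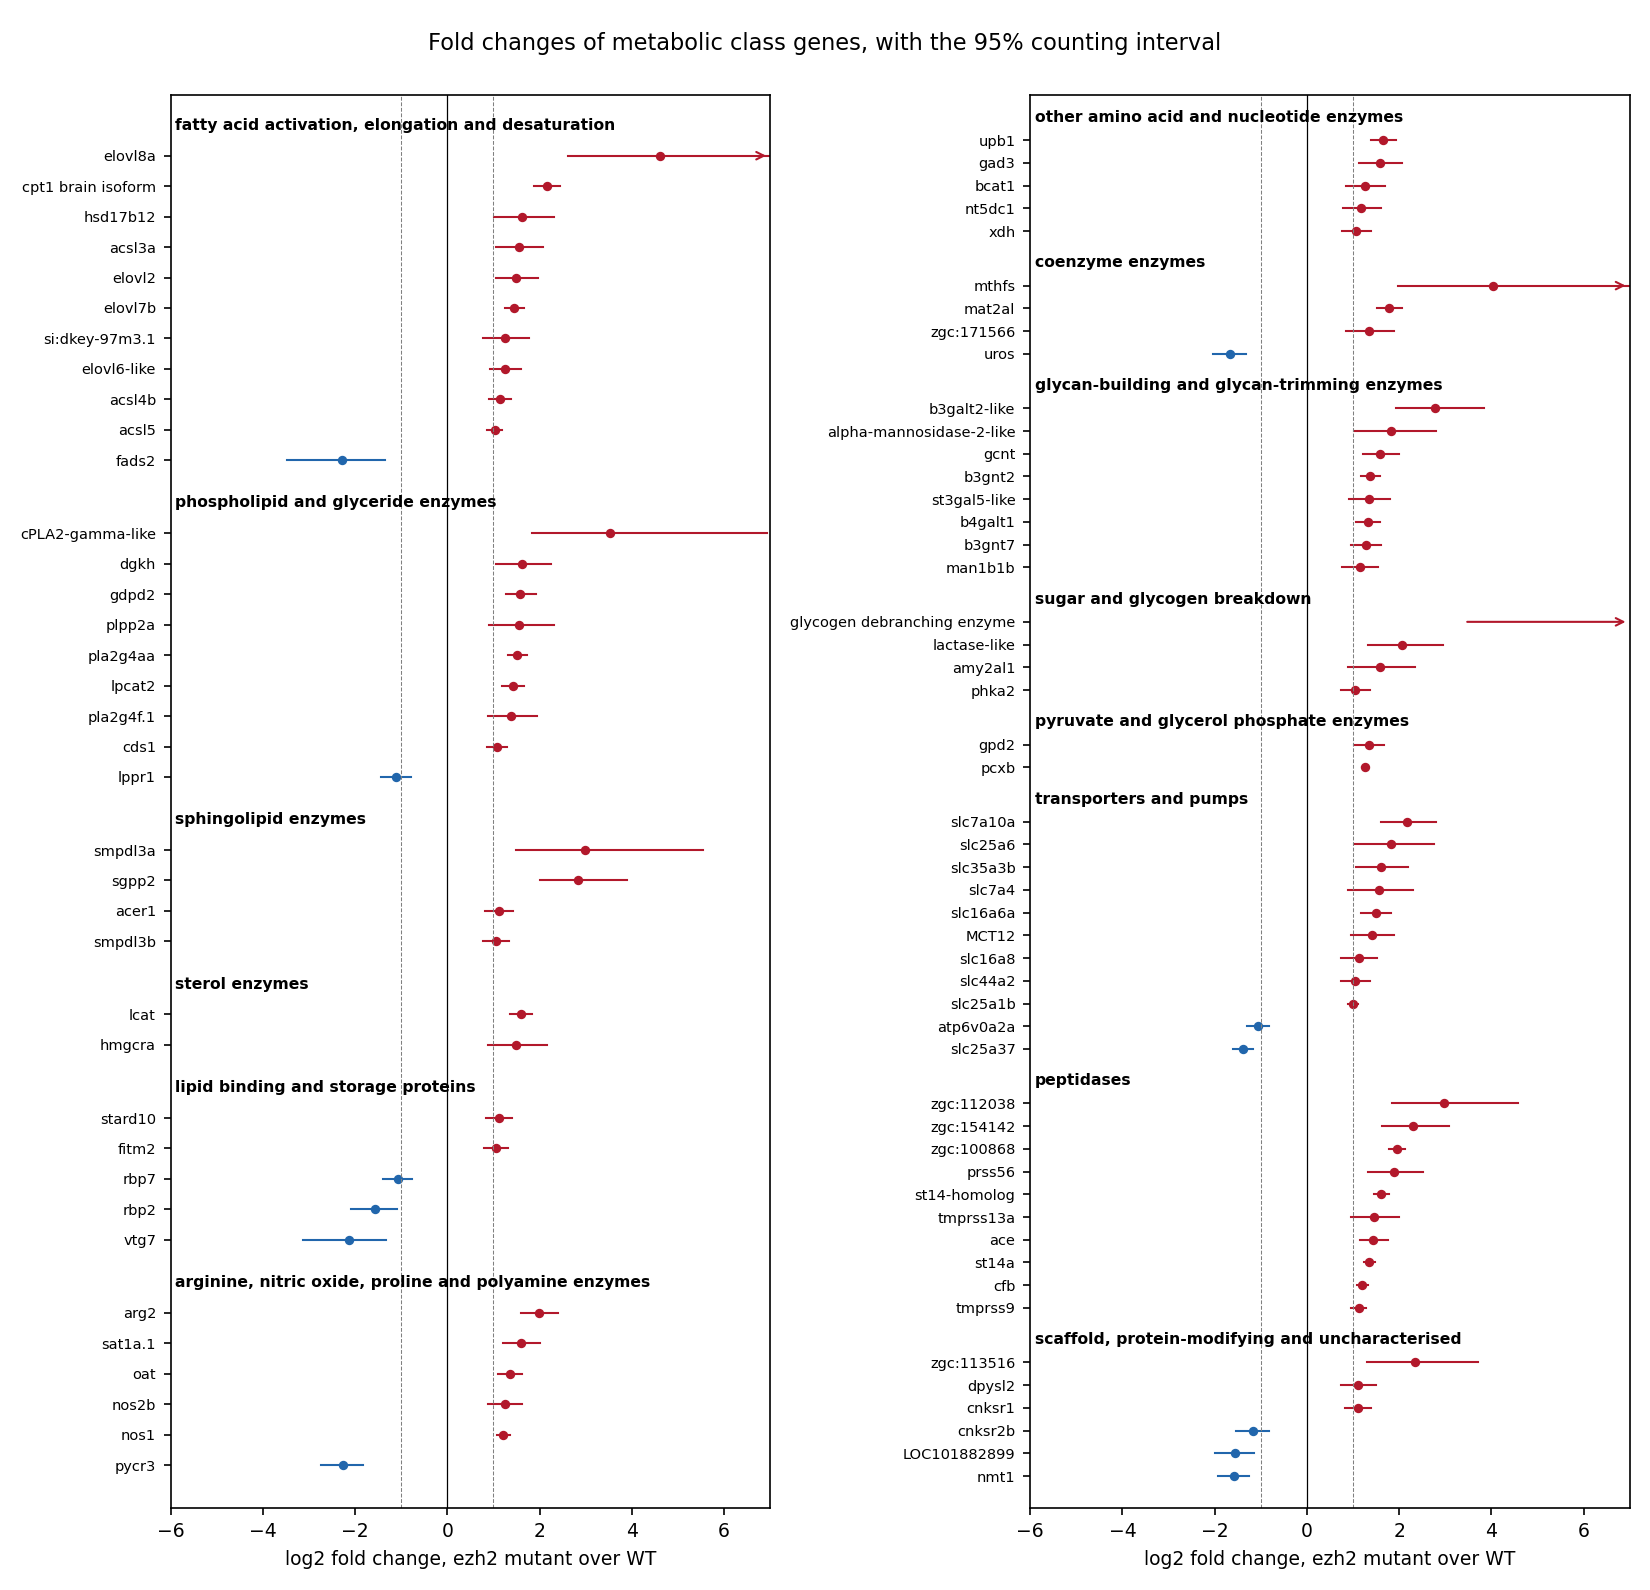
Log2 fold change (ezh2 mutant over WT) of 87 of the 88 genes by role, red where higher and blue where lower in the mutant, with lines for the 95% counting interval and arrows where it runs past the axis (the glycogen debranching enzyme, with no WT count, is drawn from its lower limit without a point). The dashed lines mark 2-fold. The interval is narrow for pcxb (2.28 to 2.51) and wide for elovl8a (6.12 to 1476), and the 25 red points under 2.47-fold turn lower when the median of the table is set to 0.

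Across 21 pathway lists of 767 genes in all, 41 genes were listed, 35 higher and 6 lower in the mutant library. Of all 1287 genes 68.1% were higher, and that share applies beside each list and class below. What share of all zebrafish genes was listed is unknown, since the table holds selected genes alone. Members of the metabolic classes accounted for 22 of the 41 listed genes, and the other 19 were not members. Of these 19, alas2 is of the coenzyme class but was left out by annotation. Several KOG letters, with a metabolic letter among them, were given to sphk1, hsd3b1 and amdhd1. The rest carried other KOG letters or none. No symbol was found from 8 of the lists, which hold 226 genes, with the limit that genes known by product name alone can be missed: beside those named above, the lists for purine and pyrimidine synthesis (23 genes), dNTP supply (11) and cyclic nucleotide phosphodiesterases and adenylate kinases (25). The list for phospholipids, glycerides and sphingolipids had 3 listed of 63 (sphk1, plpp2a and gpd2), all higher. Of the phospholipid and sphingolipid role groups above, it found plpp2a alone, so its count does not describe those groups, which also hold a lower gene. The list for nucleotide salvage and breakdown had 2 of 52 (upb1 and xdh), both higher, xdh only until the scale was centred.

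Eicosanoid genes, which carry arachidonic acid on to prostaglandins and leukotrienes, lay mostly outside the metabolic classes. Of 31 on that list 7 were listed and all 7 were higher (median log2 1.51), with ptgs1 the 1 gene to change side on the centred scale. Beside the member pla2g4aa they included the cyclooxygenase genes ptgs2a, with 870 mutant and 335 WT counts (2.62-fold, 2.31 to 2.98), ptgs2b, with 121 mutant and 37 WT counts (3.30-fold, 2.27 to 4.91), and ptgs1, with 421 mutant and 180 WT counts (2.36-fold, 1.98 to 2.83). The prostaglandin synthases ptges (372 mutant and 133 WT counts, 2.83-fold) and ptgdsb.2 (140 mutant and 33 WT counts, 4.28-fold) and the lipoxygenase alox5b.3 (87 mutant and 23 WT counts, 3.82-fold) completed the list. In RefSeq's gene order of assembly GRCz12tu, pla2g4aa and ptgs2a are neighbours, with 0 genes between them.

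Steroid, bile acid and retinoid genes were listed for 7 of 48, 6 higher and 1 lower (median log2 1.37), none of them a member, and 2 of the 6 changed side on the centred scale. Among these, cyp24a1, which inactivates vitamin D, had 749 mutant and 62 WT counts (18.2 and 1.53 FPKM), 12.2-fold higher (9.41 to 16.1). Lower was hsd11b2, which inactivates cortisol, with 48 mutant and 136 WT counts, 2.81-fold lower (2.0 to 3.98). KOG puts such cytochromes P450 in the secondary metabolite class, whose 18 listed genes were higher in 17 cases, with a median log2 fold change of 1.58. The class for inorganic ion transport had 18 of 21 genes higher and a median of 1.41.

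Since the 88 genes were chosen by a metabolic class, a larger share of enzymes among them is largely built in. The other genes also include many without any KOG class. A KEGG match with an enzyme number was given for 44 of them (50%), against 123 of the 1199 other genes (10.3%). The gene ontology term for an integral membrane protein was given for 23 (26.1%), against 124 (10.3%). Membrane members were higher in 20 of 23 cases (87.0%, median log2 1.41) and the rest in 55 of 65 (84.6%, median log2 1.35). Annotation was also more complete for the 88, since 88.6% carried some ontology term, against 61.6% of the others.

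Counts and FPKM pointed the same way for all 88. Both measures come from the same libraries, and the genes were selected for a large change, so this is largely built in. The log2 ratios of the 2 measures lay more than 0.4 apart for 4 of 87 members with counts in both libraries (4.60%), slc35a3b, the alpha-mannosidase 2-like gene, pycr3 and slc25a1b, against 53 of 1262 genes of the table (4.20%). Nearest to the limit of 1 in the authors' deposited log2 fold change were slc25a1b (1.0), acsl5 (1.02), slc44a2 (1.03), phka2 (1.04), smpdl3b (1.04) and fitm2 (1.05), all higher in the mutant.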

How the data were processed

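RNA of whole embryos was measured in 1 ezh2 mutant and 1 WT library. Per the labels' protocols, Trizol RNA was selected for poly(A) tails and prepared with the NEBNext Ultra kit. The kit does not mark strand, so overlapping antisense genes cannot be told apart. Close gene copies may have shared reads. The submitters' processing notes name GRCz10, Bowtie 0.12.2 and Cufflinks without their roles. The sources used here do not give the counting tool or the test that gave the FDR.

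The deposited values are, per the file headers, raw counts and FPKM of both libraries, FPKM being scaled for length and library size. The authors also deposited an adjusted p-value (FDR) and a log2 fold change from their own comparison of these 2 libraries. The depth is unknown, since the 764775 mutant and 799647 WT counts cover selected genes alone.

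From the counts, log2((mutant + 0.5)/(WT + 0.5)) was computed with Python 3.11.15, pandas 2.3.3, NumPy 2.4.6 and SciPy 1.17.1, plus a scale of 0.0144, the median gap to the authors' deposited log2 fold changes over the 391 genes that reached 200 counts in each library. Without molecular identifiers, reads do not count independent molecules, and intervals and floors hold counting error only. The steps were tested on simulated data. The planned comparisons held no test, since each genotype has 1 library.

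Names came from the table's zebrafish KEGG matches (56 of 88), updated by gene ID in RefSeq's table of GRCz12tu, and otherwise from product names (32). A match can be the closest paralogue. Roles were assigned by hand from these names after the table was opened. The members, the pathway lists and the rule for named genes were chosen with earlier results of these data known. That rule took, per KOG class, the 3 largest rises and falls with at least 50 counts in 1 library and the 3 highest FPKM, and up to 4 genes of each list by fold at that floor. It gave 58 genes, 45 of them members. The other members were named to complete the account, after their values were seen. The values of 1 member are not reported here, though counts and medians include it. Alternatives were another added count, FPKM, a scale with the median of the table at 0 or none, a count minimum, and other membership rules.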

Additional observations from a re-analysis of the deposited data

How the results depend on the processing

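No paired analysis was possible because each genotype has 1 library, and for the same reason no library could be left out in turn. Setting the median log2 fold change of all listed genes to 0 was the alternative that moved most values. That median comes from selected genes, most of them higher. A value that turned negative thus says only that it lay under 2.47-fold, and is no check of direction. Under it the genes at least 2-fold higher numbered 9 over the 88, 5 lipid, 1 amino acid, 2 carbohydrate, 1 coenzyme, 0 nucleotide and 0 energy genes. The median log2 fold change became 0.060 over the 88, 0.079 for lipid, 0.28 for amino acid, 0.14 for carbohydrate and 0.046 for coenzyme genes, and turned negative for nucleotide (-0.22) and energy genes (-0.058). The list medians became 0.14 for fatty acid synthesis, 0.068 for steroids, 0.20 for eicosanoids, 0.25 for phospholipids and 0.11 for amino acids. The log2 fold changes that turned negative were, among members, slc25a1b -0.30, acsl5 -0.28, slc44a2 -0.27, phka2 -0.26, smpdl3b -0.26, fitm2 -0.25, xdh -0.24, cds1 -0.23, connector enhancer of KSR 1 -0.20, acer1 -0.19, the dihydropyrimidinase-related gene -0.19, the START-domain gene -0.19, tmprss9 -0.18, slc16a8 -0.18, acsl4b -0.17, man1b1b -0.16, the 5'-nucleotidase domain gene -0.13, cfb -0.11, nos1 -0.095, nos2b -0.058, elovl6-like -0.051, si:dkey-97m3.1 -0.049, bcat1 -0.049, pcxb -0.046, b3gnt7 -0.033. Among other genes they were dgkaa -0.28, cyp7b1 -0.26, gfpt1 -0.17, cyp17a1 -0.16, ptgs1 -0.068.

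Keeping the 13 left-out rows gave 24 lower genes in all, 1 lower carbohydrate gene and 11 lower energy genes, and negative medians for coenzyme (-0.032) and energy genes (-1.13). A minimum of 50 counts in 1 library turned the coenzyme median to -0.16. Enzymes by role alone, an alternative chosen after seeing the data, gave 5 lower genes in all, 6 higher amino acid genes, 2 lower lipid genes, 2 higher and 0 lower nucleotide genes and 0 lower energy genes. Adding 5 to the counts and using FPKM moved no class count by over 1.5 times. Nor did 2 alternatives chosen after seeing the data, no scale between libraries and the addition of the 10 rows with several KOG letters. The planned limit to rows with a single KOG class gave the same 88 genes. Single genes moved beyond their counting interval in 1 of 88 cases with 5 added (the debranching enzyme, log2 3.18) and in 8 with FPKM, with no change of direction. The counts of 1 to 3 WT reads limit the size of the folds of elovl8a, mthfs, smpdl3a and the gamma-like phospholipase most.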

Other observations

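The table also gives each gene a letter of eggNOG, a second classification. For 81 of the 88 members it was the KOG letter. A metabolic eggNOG letter without any KOG class was given to 13 further genes, 12 higher and 1 lower in the mutant library, with a median log2 fold change of 1.49, and 3 of the 12 turned lower with the median of the table at 0. The greatest change among them was that of the new locus matched to cox8a, given above. Others, chosen after their values were seen, were the NADPH oxidase organizers noxo1a (266 mutant and 84 WT counts) and noxo1b (63 mutant and 15 WT counts) and the aquaporin-like gene aqp12 (1773 mutant and 685 WT counts).

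Of the 10 rows with several KOG letters, where at least 1 letter of each row is metabolic, 9 were higher and 1 was lower. The lower one was lbr, which joins a lamin receptor to a sterol reductase, with 2064 mutant and 4482 WT counts (39.1 and 80.7 FPKM), 2.15-fold lower (2.04 to 2.27). The lipid transporter abca12, of epidermal lipid secretion in mammals, had 1549 mutant and 372 WT counts, 4.21-fold higher (3.75 to 4.72). The microsomal glutathione transferase mgst2, without a KOG class, had 856 mutant and 231 WT counts (69.1 and 17.8 FPKM), 3.74-fold higher (3.23 to 4.35).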
